A study of Homo sapiens with 12 samples.

Results

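STC1, FAT2, NMNAT2, GDF15, ADAM19 and ENG were chosen by their measured log2 fold changes, because knockdown of UHRF1 moved them in opposite directions in the esophageal squamous cell carcinoma lines TE10 and Kyse410. They are 6 of 57820 gene identifiers counted, and all 6 passed the filter on low counts, which left 16060 genes. The knockdown responses of the 6 genes were therefore used to choose them and are given as a description, with no test. Both are established human cell lines. One group of each line was stably infected to express a short hairpin RNA against UHRF1 (shUHRF1) and the other carried a scramble control, with 3 libraries of polyadenylated RNA in each of the 4 groups. The labels do not give the hairpin sequence or the number of hairpins, and they do not say whether the 3 libraries are separate cultures. The p-values therefore rest on the scatter among these libraries, which may be technical.

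UHRF1 binds hemimethylated DNA behind the replication fork and brings in the maintenance methyltransferase DNMT1, so that a cell losing it can lose DNA methylation as it divides. The 6 genes belong to different systems. STC1 encodes stanniocalcin 1, a secreted glycoprotein hormone that acts locally and blocks the protease PAPP-A. GDF15 encodes a secreted, stress-induced cytokine of the TGF-beta superfamily that signals through GFRAL and RET. ENG encodes endoglin, a co-receptor for TGF-beta and BMP ligands best known in endothelium, and ADAM19 a membrane metalloprotease that can shed growth factors such as neuregulin. FAT2 encodes a giant atypical cadherin of squamous epithelium that takes part in collective cell migration. NMNAT2 makes NAD from nicotinamide mononucleotide and is best known for protecting axons.

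Each library had between 7857662 and 12005229 gene reads. Levels are in CPM, the reads of a gene relative to the gene reads of its library, scaled by the trimmed mean of M-values (TMM), as mean ± SD of 3 libraries. In TE10, UHRF1 itself measured 179 ± 5.3 CPM in the scramble and 85.9 ± 3.5 CPM in the shRNA group. In Kyse410 the values were 99.1 ± 3.5 and 42.5 ± 0.89 CPM. All 8 squamous epithelial markers were at 1 CPM or more in each group. Their summed level ran from 1191 to 1247 CPM with the shRNA and from 1490 to 1530 CPM with the scramble in TE10, and from 800 to 812 and from 658 to 670 CPM in Kyse410. The share of the 13 mitochondrial mRNAs was 4.75 ± 0.37% in the TE10 shRNA group against 5.37 ± 0.049% in its control, and 2.82 ± 0.033% against 1.66 ± 0.063% in Kyse410. Both sums thus moved down in TE10 and up in Kyse410, as 5 of the 6 genes did. Their part in the responses below was not tested. Within the squamous sum, PERP went the other way in TE10, at 546 CPM with the shRNA and 448 CPM with the scramble. In Kyse410 KRT17, at 41 and 81 CPM, and KRT14, at 1.3 and 4.39 CPM, did so. All other squamous markers of each line went with its sum. Of 7 fibroblast markers, COL1A1 carried most of the sum, which ran from 49.5 to 56.1 CPM with the shRNA and from 44.0 to 47.8 CPM with the scramble in TE10, and from 149.8 to 162.4 and from 113.8 to 123.8 CPM in Kyse410. The 6 blood markers summed to at most 1.31 CPM in any library. In bulk RNA, fewer cells expressing a gene and less RNA per cell cannot be told apart.

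The promoters of these genes are shown because UHRF1 acts on methylation of CG pairs, whose density differs between them. Of the 6 genes, 5 were matched in RefSeq's promoter sequences of GRCh38.p14, and STC1 was not. Each run holds 250 bases before and 50 bases after the annotated start, 5′ to 3′ on the gene's strand, with each CG in capitals. They lie at chr5:151591282-151591581 (minus strand) for FAT2, chr1:183418331-183418630 (minus strand) for the upstream start of NMNAT2, chr19:18385908-18386207 (plus strand) for GDF15, chr5:157575726-157576025 (minus strand) for ADAM19 and chr9:127854609-127854908 (minus strand) for ENG.
FAT2: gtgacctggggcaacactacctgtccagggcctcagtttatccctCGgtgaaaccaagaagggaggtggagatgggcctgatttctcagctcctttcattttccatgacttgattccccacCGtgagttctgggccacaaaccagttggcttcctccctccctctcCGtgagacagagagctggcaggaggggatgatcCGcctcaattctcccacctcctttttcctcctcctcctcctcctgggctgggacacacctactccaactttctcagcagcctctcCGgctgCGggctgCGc
NMNAT2: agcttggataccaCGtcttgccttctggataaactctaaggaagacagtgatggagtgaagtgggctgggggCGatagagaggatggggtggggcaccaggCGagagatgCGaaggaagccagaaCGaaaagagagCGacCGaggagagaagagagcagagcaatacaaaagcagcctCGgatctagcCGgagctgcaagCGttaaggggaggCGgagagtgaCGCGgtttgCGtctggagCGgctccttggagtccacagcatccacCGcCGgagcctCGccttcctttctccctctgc
GDF15: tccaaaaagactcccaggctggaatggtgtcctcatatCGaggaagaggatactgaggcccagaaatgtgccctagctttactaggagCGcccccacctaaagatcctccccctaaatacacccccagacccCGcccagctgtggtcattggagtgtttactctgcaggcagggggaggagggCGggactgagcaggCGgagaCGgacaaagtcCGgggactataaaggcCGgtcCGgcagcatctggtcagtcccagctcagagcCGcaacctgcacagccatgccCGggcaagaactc
ADAM19: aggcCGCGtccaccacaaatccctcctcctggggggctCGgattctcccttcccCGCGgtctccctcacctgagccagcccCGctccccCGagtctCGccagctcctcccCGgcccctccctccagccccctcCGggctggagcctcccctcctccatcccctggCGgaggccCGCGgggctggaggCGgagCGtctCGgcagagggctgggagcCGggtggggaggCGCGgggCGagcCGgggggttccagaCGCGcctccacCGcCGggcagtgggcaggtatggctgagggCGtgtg
ENG: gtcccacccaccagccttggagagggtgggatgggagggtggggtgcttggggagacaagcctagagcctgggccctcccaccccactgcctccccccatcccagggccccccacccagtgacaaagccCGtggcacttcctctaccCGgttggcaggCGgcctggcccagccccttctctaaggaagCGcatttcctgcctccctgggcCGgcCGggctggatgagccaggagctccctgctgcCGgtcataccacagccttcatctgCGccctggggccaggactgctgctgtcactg

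FAT2 had 7 CG pairs in its 300 bases, ENG 8, GDF15 11, NMNAT2 18 and ADAM19 26, against a median of 14 over 35116 promoter windows of this length. The ADAM19 window was as rich in CG as the upper 30.1% of windows, and 63.2% of windows had at least as many CG as FAT2. A downstream start of NMNAT2 had 4. Of the 5 genes with a window, only GDF15 was higher in TE10 and lower in Kyse410 with the shRNA. With a single gene that way, nothing is read from CG counts about direction. Of the motifs searched on both strands, TATAAA was found 1 time in the GDF15 window and in no other, and 11.5% of all windows held it. GGGCGG, which contains a CG, was found 2 times in GDF15 (45% of all windows held it), and ACGTG, which also contains a CG, 1 time in the upstream NMNAT2 window (21.4%). TGANTCA was in none of the windows of these 5 genes and in 7.71% of all. A match describes letters in the window and does not show a binding site, and DNA methylation was not measured in these libraries.

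In the scramble controls, 4 of the 6 genes were higher in TE10 and 2 in Kyse410. This comparison was not used to choose the genes, although it shares the scramble libraries with the contrasts that were. All 6 passed edgeR's quasi-likelihood test at an adjusted p of 0.05, where 73.7% of all genes did (36.7% higher and 37.1% lower in Kyse410), and the libraries did not overlap for any of the 6 (76.1% of all genes). GDF15 stood furthest apart, 71.7-fold higher in Kyse410 (log2 difference 6.16 ± 0.053 SE, edgeR adjusted p = 1.06e-58). NMNAT2 was 1.52-fold higher in Kyse410 (0.61 ± 0.11, edgeR adjusted p = 1.34e-06). FAT2 was 5.07-fold higher in TE10 (−2.34 ± 0.19, edgeR adjusted p = 9.79e-16) and ADAM19 2.76-fold (−1.47 ± 0.18, edgeR adjusted p = 1.68e-10). ENG was 1.24-fold higher in TE10 (−0.31 ± 0.059, edgeR adjusted p = 7.09e-06). STC1 differed least, at 1.09-fold (−0.13 ± 0.04, edgeR adjusted p = 0.00382), and did not pass when libraries were scaled by their totals only (−0.03, edgeR adjusted p = 0.47).

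With the shRNA, 5 of the 6 genes were lower in TE10 and higher in Kyse410, and GDF15 was higher in TE10 and lower in Kyse410. Over all genes, 3.63% were called lower in TE10 and higher in Kyse410, 4.29% the other way and 7.92% in either of these. In Kyse410 alone 26.7% of all genes were called lower. The difference of the responses was called for 38.9% of all genes, and for 19.9% as lower in Kyse410. A further 16% were called in the same direction in both lines. In neither line did the shRNA and scramble libraries overlap for any of the 6, which held for 46.9% of all genes in TE10 and for 55.6% in Kyse410. Since these contrasts chose the genes, nothing is read from those shares.

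**Figure D1:**
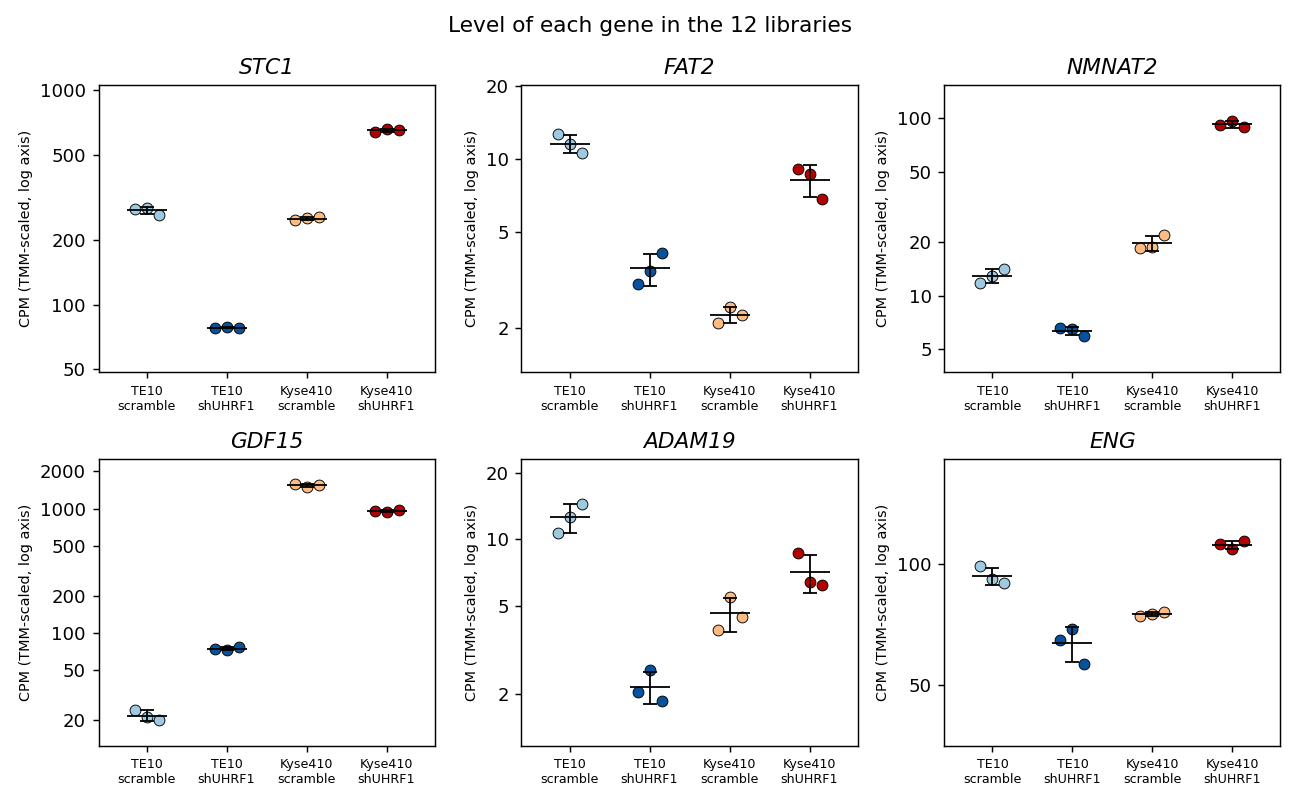
Level of each gene in every library, in TMM-scaled CPM on a log axis, for the 4 groups of 3 libraries. Points are libraries, and the long horizontal line and bars are the mean and SD. STC1, FAT2, NMNAT2, ADAM19 and ENG are lower with shUHRF1 in TE10 and higher in Kyse410, and GDF15 is the reverse.

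Among the secreted factors, STC1 had 77.5, 78.7 and 78.0 CPM in the TE10 shRNA libraries and 281, 283 and 263 CPM in the TE10 scramble libraries. In Kyse410 it had 638, 662 and 651 CPM with the shRNA and 247, 253 and 256 CPM with the scramble. The control levels of the lines lay close together, and the shRNA groups lay far below and far above them. The log2 fold change was −1.82 ± 0.047 (SE) in TE10, 3.52-fold lower, and 1.37 ± 0.038 in Kyse410, 2.58-fold higher. The ratio of Kyse410 to TE10 went from 0.915 with the scramble to 8.33 with the shRNA.

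GDF15 had 75.1, 73.1 and 77.1 CPM with the shRNA in TE10 and 24.0, 21.2 and 19.8 CPM with the scramble. In Kyse410 it had 962, 948 and 987 CPM with the shRNA and 1585, 1488 and 1565 CPM with the scramble. Every Kyse410 library lay above every TE10 library, and the order within each line was the reverse of that of STC1. The log2 fold change was 1.80 ± 0.068 in TE10, 3.48-fold higher, and −0.68 ± 0.035 in Kyse410, 1.6-fold lower. Kyse410 over TE10 went from 71.4 with the scramble to 12.9 with the shRNA, so the lines lay closer together.

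At the cell surface, ENG had 64.8, 68.9 and 56.4 CPM with the shRNA in TE10 and 98.5, 91.4 and 89.4 CPM with the scramble. In Kyse410 it had 112, 109 and 114 CPM with the shRNA and 74.2, 75.1 and 75.7 CPM with the scramble. The responses were near 1.5-fold in each line and close to mirror images. In TE10 this was the smallest response of the 6, and in Kyse410 it was not separated from that of ADAM19. The log2 fold change was −0.55 ± 0.063 in TE10 and 0.57 ± 0.057 in Kyse410. An antisense gene, AL162586.1, overlaps 8% of the exon bases of ENG in GENCODE 29 and held up to 350 reads in a library. It fell by 0.82 ± 0.11 on the log2 scale in TE10 and rose by 0.61 ± 0.093 in Kyse410 (edgeR adjusted p = 1.48e-08 and 1.67e-07), and, with the strand setting unknown, where the genes overlap, the reads of AL162586.1 and of ENG cannot be told apart. Of 6 endothelial markers counted, CDH5 was at 14.1 CPM with the shRNA and 9.13 CPM with the scramble in TE10, and at 95.7 and 24.7 CPM in Kyse410. The other endothelial markers, VWF, KDR, TEK, CLDN5 and TIE1, were each under 1 CPM in every group. The summed endothelial level ran from 12.5 to 15.9 CPM with the shRNA and from 7.75 to 11.7 CPM with the scramble in TE10, and from 92.5 to 106 and from 25.2 to 25.5 CPM in Kyse410. This sum, carried mostly by CDH5, was higher with the shRNA in both lines, and ENG in Kyse410 only. In TE10, VWF, TEK, CLDN5 and TIE1 were lower with the shRNA and KDR higher, all on few reads. What these markers have to do with the level of ENG was not tested.

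ADAM19 had 2.04, 2.56 and 1.86 CPM with the shRNA in TE10 and 10.7, 12.6 and 14.5 CPM with the scramble. In Kyse410 it had 8.67, 6.39 and 6.18 CPM with the shRNA and 3.90, 5.51 and 4.45 CPM with the scramble. Its response in TE10 was the largest of the 6 in that line, and its Kyse410 groups came close to touching. These levels rest on 14 to 137 reads in a library. The log2 fold change was −2.55 ± 0.22 in TE10, 5.86-fold lower, and 0.63 ± 0.185 in Kyse410, 1.55-fold higher.

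FAT2 had 3.05, 3.45 and 4.11 CPM with the shRNA in TE10 and 12.7, 11.5 and 10.6 CPM with the scramble. In Kyse410 it had 9.12, 8.68 and 6.83 CPM with the shRNA and 2.11, 2.45 and 2.27 CPM with the scramble. The lines changed places: TE10 over Kyse410 was 5.09 with the scramble and 0.431 with the shRNA. The log2 fold change was −1.71 ± 0.19 in TE10, 3.26-fold lower, and 1.86 ± 0.20 in Kyse410, 3.63-fold higher. The reads behind each FAT2 value numbered 24 to 106.

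The NAD enzyme gene NMNAT2 had 6.62, 6.52 and 5.97 CPM with the shRNA in TE10 and 11.8, 13 and 14.1 CPM with the scramble. In Kyse410 it had 91.3, 95.8 and 88.5 CPM with the shRNA and 18.7, 18.8 and 22.1 CPM with the scramble. Its fold in Kyse410 was the highest of the 6 in that line, with that of FAT2 next. The log2 fold change was −1.03 ± 0.14 in TE10, 2.04-fold lower, and 2.21 ± 0.078 in Kyse410, 4.64-fold higher. Kyse410 over TE10 went from 1.53 to 14.4.

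**Figure D2:**
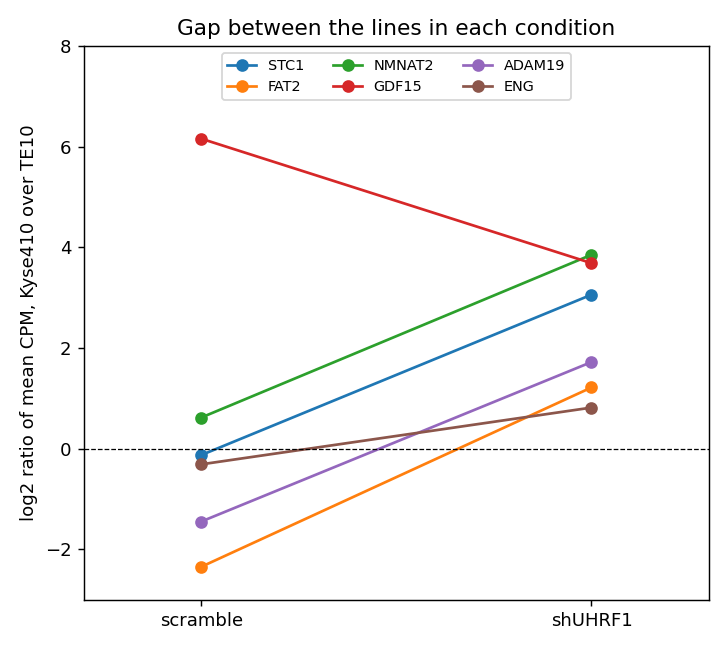
Log2 ratio of mean CPM, Kyse410 over TE10, for each of the 6 genes with the scramble (left) and with shUHRF1 (right). The lines cross 0 for STC1, FAT2, ADAM19 and ENG, the ratio of NMNAT2 went from 1.53 to 14.4, and that of GDF15 from 71.4 to 12.9.

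Across the 4 groups the genes had different orders. The highest group was Kyse410 with the shRNA for STC1, NMNAT2 and ENG, TE10 with the scramble for FAT2 and ADAM19, and Kyse410 with the scramble for GDF15. The lowest was TE10 with the shRNA for STC1, NMNAT2, ADAM19 and ENG, Kyse410 with the scramble for FAT2 and TE10 with the scramble for GDF15. Of 18 pairs of groups next to each other in these orders, 0 had overlapping libraries. Some of these pairs are contrasts that chose the genes, and the share over all genes was not counted, so nothing is read from this. The closest of the 18 pairs were the scramble controls for STC1, at 275 ± 11 CPM in TE10 and 252 ± 4.6 CPM in Kyse410. For ENG, the TE10 shRNA group at 63.3 ± 6.4 CPM lay just below the Kyse410 scramble group at 75.0 ± 0.76 CPM.

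Per kilobase of exon in GENCODE 29, the levels of the genes could be set beside each other. In Kyse410 scramble controls GDF15 was at 741 ± 25 CPM per kb and STC1 at 60.8 ± 1.1, whereas ENG was at 19.1 ± 0.19 and NMNAT2 at 2.77 ± 0.27. ADAM19, at 0.60 ± 0.11 CPM per kb, and FAT2, at 0.157 ± 0.012, were the lowest there. In TE10 scramble controls STC1 led with 66.4 ± 2.7 CPM per kb, followed by ENG at 23.7 ± 1.2 and GDF15 at 10.4 ± 1.0. There NMNAT2 was at 1.81 ± 0.16, ADAM19 at 1.64 ± 0.25 and FAT2 at 0.798 ± 0.071 CPM per kb.

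Ranked by the smaller of their 2 absolute log2 fold changes, FAT2 was number 4, STC1 number 12 and NMNAT2 number 38 among the 1272 genes called in opposite directions. GDF15 was number 98, ADAM19 number 115 and ENG number 152. Among the 689 genes higher in TE10 and lower in Kyse410, GDF15 was number 19. The median of that smaller change was 0.239 over those 689 genes and 0.335 over the 583 with the reverse directions. Only 40 of the 1272 genes changed by at least 1 log2 unit in both lines. FAT2, STC1, NMNAT2, GDF15, ADAM19 and ENG were chosen by these same fold changes. Their ranks, and their place among the called genes, are therefore a description, with no test. Nothing is read from these ranks or from setting these genes beside the medians.

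**Figure D3:**
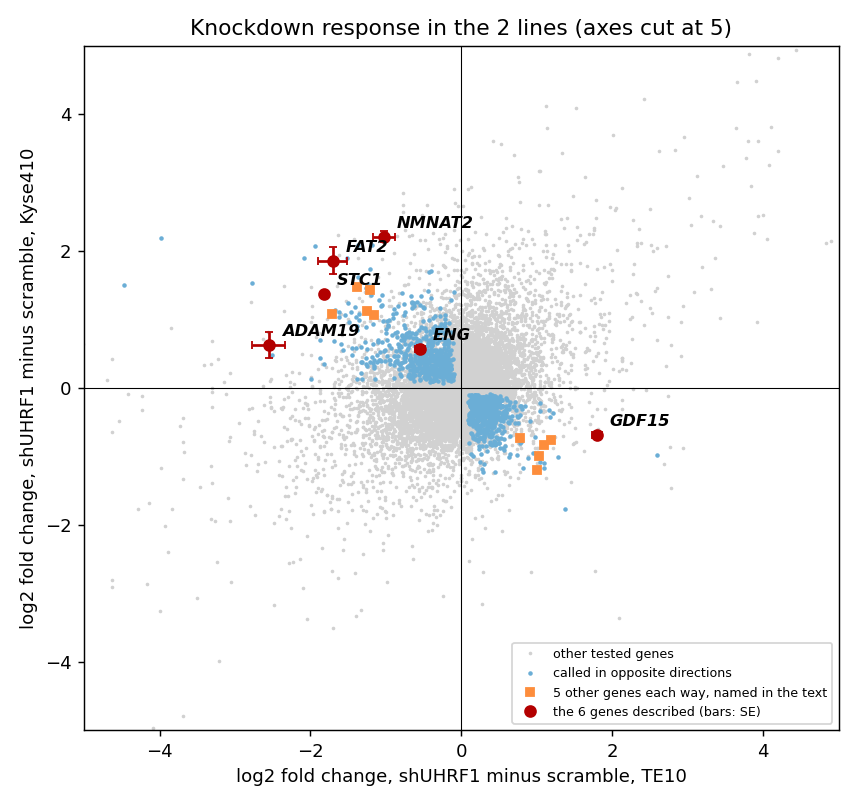
Log2 fold change, shUHRF1 minus scramble, in TE10 (horizontal) and Kyse410 (vertical) for the 16060 genes tested, of which 13 lie outside the axes. Red points are the 6 genes with their SE, blue points the genes called in opposite directions, and orange squares 5 further genes each way. GDF15 lies at lower right and the other 5 at upper left, with ENG nearest to the centre.

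The genes whose levels most resembled each of the 6 over the 12 libraries were sought among 10422 protein-coding genes at 5 CPM or more, by Pearson's correlation of log2 CPM. The 12 points share their libraries and fall into 4 groups, so the likeness is mostly one of group levels. STC1 was most like DUSP6, a phosphatase that switches off ERK (r = 0.997), the collagen-binding integrin gene ITGA2 (0.994) and the septin gene SEPTIN10 (0.987). DUSP6 was at 46.6 CPM with the shRNA and 93.4 CPM with the scramble in TE10, and at 171 and 93.4 CPM in Kyse410. Its controls lay closer together than those of STC1. ITGA2 was at 142 and 227 CPM in TE10 and at 322 and 230 CPM in Kyse410.

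FAT2 was most like ABHD17C, a depalmitoylase gene (r = 0.992), DNMBP, an exchange factor gene for CDC42 (0.981), and WWTR1, which encodes the Hippo pathway coactivator TAZ (0.965). WWTR1 was at 148 CPM with the shRNA and 210 CPM with the scramble in TE10, and at 192 and 136 CPM in Kyse410. NMNAT2 was most like ZMYND8 (r = 0.992), the mitochondrial isocitrate dehydrogenase gene IDH2 (0.989) and SOWAHC (0.988). IDH2 was at 13.2 and 18.9 CPM in TE10 and at 57.0 and 25.1 CPM in Kyse410. GDF15 was most like TMEM80 (r = 0.998), the ephrin receptor gene EPHA2 (0.998) and the kinase gene PIM3 (0.998). PIM3 was at 176 CPM with the shRNA and 113 CPM with the scramble in TE10, and at 492 and 658 CPM in Kyse410.

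Among the genes most like ADAM19 were OLFML2A (r = 0.976) and TGFBI, a matrix protein gene induced by TGF-beta (0.964). TGFBI was at 156 and 344 CPM in TE10 and at 238 and 217 CPM in Kyse410, the latter 2 close together. ENG was most like FAM114A1 (r = 0.985), the plasma membrane calcium pump gene ATP2B4 (0.968) and NUCB2 (0.966). ATP2B4 was at 95.6 CPM with the shRNA and 154 CPM with the scramble in TE10, and at 221 and 130 CPM in Kyse410. Among the 6 genes themselves, r was 0.927 for STC1 with NMNAT2 and 0.921 for STC1 with ENG, and −0.511 for FAT2 with GDF15.

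The partners of the 6 genes were then counted, from 6 lists with 73 members, none of them among the 6. Of these 58 were tested, and 13 rose and 22 fell in TE10 (60.3% called, against 38.8% of all genes), with a median log2 fold change of −0.07 against 0.0015 for all genes. In Kyse410 18 rose and 29 fell (81%, against 49.3%), with a median of −0.15 against −0.03. Of the 58, 4 were called in opposite directions in the lines (6.9%, near the 7.92% of all genes) and 24 in the same direction (41.4%, against 16% of all genes). The lists were chosen with earlier results of these data known. Their genes were called more often in each line, which raises such joint shares, so nothing is read from them. The 4 in opposite directions were QPRT, SARM1, CDKN1A and SMAD3, of which CDKN1A and SMAD3 are named here after their values were seen. All tests of partners were edgeR's quasi-likelihood test, adjusted over all genes.

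**Figure D4:**
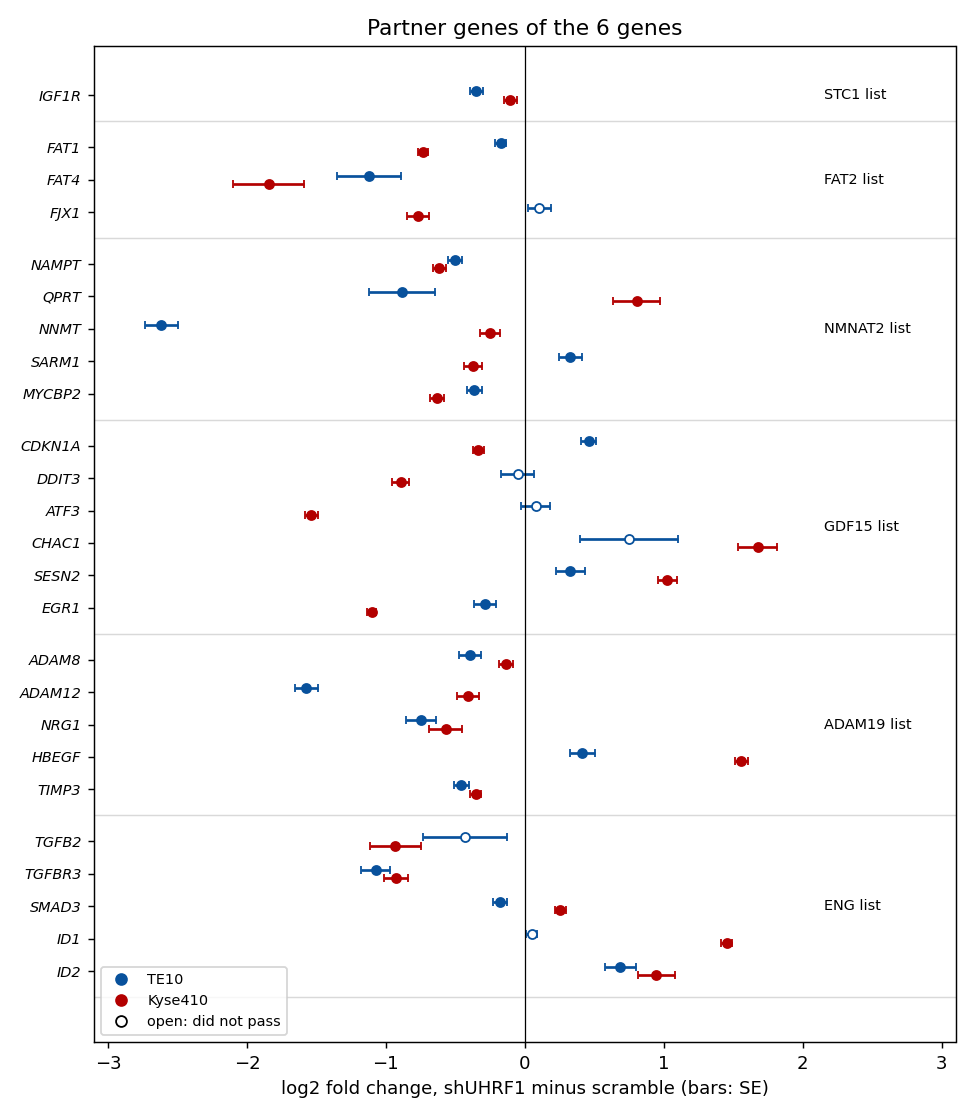
Log2 fold change, shUHRF1 minus scramble, with its SE for partner genes of each of the 6 genes in TE10 (blue) and Kyse410 (red). Open points did not pass the edgeR test. QPRT, SARM1, CDKN1A and SMAD3 are on opposite sides of 0 in the lines, and 24 of the 58 partners tested were called in the same direction in both.

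For STC1, the list held its paralogue, its target protease and the growth factor axis that this protease releases. Only STC2 and IGF1R were tested, since PAPPA, PAPPA2, IGFBP4 and IGFBP5 had at most 5 reads in any library. STC2, named here as the paralogue, did not pass in either line, at −0.18 ± 0.075 in TE10 (edgeR adjusted p = 0.0504) and 0.02 ± 0.051 in Kyse410 on the log2 scale. The falls of this list in TE10 numbered 2 in place of 1 with library totals only, without a filter, with the replicate block and without any of 3 single libraries (TE10 shRNA replicate 3, Kyse410 shRNA replicates 1 and 2). The receptor gene IGF1R fell by 0.35 (SE 0.05) in TE10 and by 0.10 (SE 0.045) in Kyse410, and the latter (edgeR adjusted p = 0.0498) was lost without any of 9 single libraries (edgeR adjusted p up to 0.325) and under each of the other alternatives except the replicate block (adjusted p from 0.0907 to 0.14).

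Of the Fat and Dachsous cadherins and their kinase gene FJX1, 3 of 6 were tested. FAT1, a widely expressed paralogue of FAT2, fell from 814 ± 15 to 721 ± 42 CPM in TE10 and from 985 ± 26 to 594 ± 11 CPM in Kyse410. Its fall in TE10, −0.17 ± 0.037 on the log2 scale, was −0.095 without TE10 shRNA replicate 1 (edgeR adjusted p = 0.0391). FAT4 fell in both lines, at −1.12 ± 0.23 in TE10 and −1.84 ± 0.26 in Kyse410. FJX1 fell by 0.77 (SE 0.079) in Kyse410 and was at 0.11 ± 0.082 in TE10, where it did not pass. None of the 3 rose in Kyse410, where FAT2 was higher with the shRNA.

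Of 14 genes of NAD synthesis and turnover, 11 were tested. In TE10 2 rose and 5 fell, against 18.8% and 20% of all genes. In Kyse410 2 rose and 6 fell, against 22.6% and 26.7% of all genes. The paralogue NMNAT1, outside the naming rule like STC2, did not pass in either line, with at most 31 reads in a library. It was at −0.59 ± 0.32 in TE10 and −0.125 ± 0.26 in Kyse410 on the log2 scale (edgeR adjusted p = 0.149 and 0.722). NMNAT3 had at most 3 reads. NAMPT, which makes the substrate of NMNAT2, fell by 0.50 (SE 0.052) in TE10 and by 0.61 (SE 0.046) in Kyse410. QPRT, a gene of the route from tryptophan to NAD, went the way of NMNAT2. It went from 5.92 ± 1.0 to 3.22 ± 0.97 CPM in TE10 and from 6.53 ± 2.0 to 11.5 ± 0.87 CPM in Kyse410 (edgeR adjusted p = 0.00232 and 8e-05). SARM1, an NAD-cleaving enzyme that NMNAT2 holds in check in axons, went the other way, at 0.33 ± 0.083 in TE10 and −0.37 ± 0.065 in Kyse410 (edgeR adjusted p = 0.00119 and 3.91e-06). MYCBP2, a ubiquitin ligase that targets NMNAT2 for degradation, fell by 0.36 (SE 0.054) in TE10 and by 0.63 (SE 0.051) in Kyse410. NNMT, which methylates nicotinamide, fell from 42.5 ± 1.5 to 6.91 ± 1.4 CPM in TE10 and from 55.0 ± 3.5 to 46.4 ± 3.0 CPM in Kyse410. The smaller fall of NNMT did not pass without Kyse410 shRNA replicate 2 or scramble replicate 1 (edgeR adjusted p = 0.0824 and 0.0519).

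Around GDF15, 11 of 13 genes were tested, and its receptor gene GFRAL had no reads. In TE10 4 rose and 1 fell, against 18.8% and 20% of all genes. In Kyse410 6 rose and 5 fell, against 22.6% and 26.7% of all genes. Without TE10 scramble replicate 2 the rises in TE10 numbered 2, and without TE10 shRNA replicate 1 they numbered 6 and the falls 0. CDKN1A, a cell cycle inhibitor gene that p53 induces as it does GDF15, went the same ways as GDF15. It was at 125 ± 6.8 CPM with the shRNA and 90.4 ± 6.8 CPM with the scramble in TE10, and at 292 ± 9.3 and 368 ± 2.9 CPM in Kyse410 (edgeR adjusted p = 4.2e-10 and 1.84e-09). Of the stress transcription factor genes, ATF3 fell by 1.54 (SE 0.047) and DDIT3 by 0.89 (SE 0.061) in Kyse410, where GDF15 was lower, and they were at 0.08 ± 0.10 and −0.05 ± 0.12 in TE10, where neither passed. EGR1 fell by 1.10 (SE 0.034) in Kyse410 and by 0.29 (SE 0.081) in TE10, the latter lost without TE10 shRNA replicate 1 (edgeR adjusted p = 0.08). Further targets of stress signalling went up in Kyse410, with CHAC1 at 1.68 ± 0.14 and SESN2 at 1.03 ± 0.066. In TE10 SESN2 rose by 0.33 (SE 0.10), which did not pass without TE10 scramble replicate 2 (edgeR adjusted p = 0.0539), and CHAC1 was at 0.75 ± 0.35 and did not pass.

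Of 11 ADAM proteases, substrates and inhibitor, 10 were tested. In TE10 3 rose and 5 fell, against 18.8% and 20% of all genes. In Kyse410 2 rose (1 without Kyse410 scramble replicate 2) and 6 fell, against 22.6% and 26.7% of all genes. Of the 10, 0 went in opposite directions, where 7.92% of all genes did, so nothing is read from this. ADAM12, a paralogue of ADAM19, fell by 1.57 (SE 0.084) in TE10 and by 0.41 (SE 0.08) in Kyse410. ADAM8 fell by 0.39 (SE 0.077) in TE10 and by 0.13 (SE 0.051) in Kyse410, and its Kyse410 call was lost with DESeq2 (adjusted p = 0.116), with library totals only, without the filter and with the 6 Kyse410 libraries alone (edgeR adjusted p = 0.071, 0.0547 and 0.0592), and without any of 5 single libraries (edgeR adjusted p up to 0.25). The neuregulin gene NRG1, a substrate, fell by 0.75 (SE 0.11) in TE10 and by 0.57 (SE 0.12) in Kyse410. HBEGF, which encodes another shed growth factor, rose from 18.6 ± 1.3 to 24.8 ± 1.8 CPM in TE10 and from 88.9 ± 0.64 to 262 ± 4.6 CPM in Kyse410. TIMP3, an inhibitor of ADAM proteases, fell by 0.46 (SE 0.053) in TE10 and by 0.35 (SE 0.042) in Kyse410.

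Of 23 genes of the endoglin pathway, 21 were tested. In TE10 4 rose and 8 fell, against 18.8% and 20% of all genes. In Kyse410 8 rose and 8 fell, against 22.6% and 26.7% of all genes. The falls in TE10 numbered 5 without TE10 shRNA replicate 1 and 5 with the TE10 libraries fitted alone. SMAD3, a transducer of TGF-beta signals, was the only pathway gene called in both lines in the same directions as ENG. It was at −0.18 ± 0.049 in TE10 and 0.26 ± 0.042 in Kyse410 (edgeR adjusted p = 0.003 and 8.14e-07). Its TE10 call was lost without TE10 shRNA replicate 1 (edgeR adjusted p = 0.0789). TGFBR3, which encodes the related co-receptor betaglycan, fell by 1.07 (SE 0.11) in TE10 and by 0.93 (SE 0.087) in Kyse410. The ligand gene TGFB2 fell by 0.93 (SE 0.18) in Kyse410 and was at −0.43 ± 0.30 in TE10, where it did not pass. Among targets, ID1 rose from 258 ± 12 to 707 ± 12 CPM in Kyse410 and was at 376 ± 12 and 389 ± 20 CPM in TE10, where it did not pass. ID2 rose by 0.69 (SE 0.11) in TE10 and by 0.95 (SE 0.14) in Kyse410.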

How the data were processed

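The deposited files hold raw counts, whole numbers of reads per Ensembl gene, 1 file per library. Per the submitters' processing notes, the build was GRCh37.p13 and the tools were HTSeq 0.9.1, HISAT2 2.1.0, bcl2fastq 2.19 and DESeq2. Not given in the sources used here are the annotation release, the strand setting and the role of each tool. Rows that name no gene were left out; reads in no feature took 42.9 to 44.7% of a library. Of 57820 identifiers, 52338 were matched to symbols; the symbol of UHRF1 was assigned by hand.

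Counts were filtered by filterByExpr, scaled by TMM and fitted with edgeR 4.0.16 in R 4.3.3, with a mean for each of 4 groups over 12 libraries and 8 residual degrees of freedom. The Benjamini-Hochberg adjustment ran over 16060 genes, called under 0.05. Fitted contrasts were the knockdown response of each line, their difference, which was added to the planned comparisons, and Kyse410 minus TE10 among scramble controls. Log2 CPM for likeness used a prior count of 2. The pipeline was tested on simulated data. DESeq2 1.42.0 was an alternative test. Replicates of a group differed by 1.57 to 2.92 times counting error (chi-square per degree of freedom).

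The 6 genes and the lists of partners were chosen with earlier results of these data known. Named partners were up to 5 called genes per list with the largest change in either line, where the mean in that line reached 5 CPM. Named look-alikes were the 3 protein-coding genes of highest Pearson's r, and further opposite genes the 5 each way with the largest smaller change at 5 CPM or more in each line. Antisense, read-through, pseudogene and clone names were passed over, and 2 genes that the rule names are not reported here. Promoters come from RefSeq (GRCh38.p14) and exon lengths and overlaps from GENCODE 29. These are of another build than the counts, so exon lengths and overlaps may differ from those counted.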

Additional observations from a re-analysis of the deposited data

Results flagged for a closer look

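The 6 genes were picked for opposite responses, and every library of the shRNA groups lay on opposite sides of the controls in the lines. The difference of the responses, Kyse410 minus TE10 on the log2 scale, was 3.19 for STC1, 3.57 for FAT2, 3.24 for NMNAT2, 3.18 for ADAM19, 1.12 for ENG and −2.48 for GDF15. It was not tested, because the genes were chosen on it.

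EdgeR's test of the difference itself called 51.7% of the 58 partners tested and 38.9% of all genes. The partners named were picked for large called changes or for opposite calls, so their own share is not compared with these. Among the 25 partner genes named, 17 had responses that differed between the lines by this test. Of these 9 were more positive in Kyse410. The NAD genes QPRT and NNMT differed by 1.69 and 2.37, and the metalloprotease genes ADAM12 and ADAM8 by 1.17 and 0.26. HBEGF differed by 1.14, ID1 by 1.40, SESN2 by 0.70, SMAD3 by 0.43 and IGF1R by 0.24. The other 8 were more negative in Kyse410. The stress genes ATF3, DDIT3, EGR1 and CDKN1A differed by −1.62, −0.84, −0.82 and −0.79. FJX1 differed by −0.88, SARM1 by −0.70, FAT1 by −0.56 and MYCBP2 by −0.27. Their edgeR adjusted p ran from 1.42e-26 for ID1 to 0.0227 for ADAM8.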

How the results depend on the processing

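All 6 genes kept opposite signs in the lines under each of the 18 alternatives. These refits reuse the libraries that chose the genes, so neither the kept signs nor the ranges that follow count as support. Leaving out a library in turn gave ranges in TE10 of −1.85 to −1.78 for STC1, −1.83 to −1.58 for FAT2, −1.09 to −0.96 for NMNAT2, 1.74 to 1.88 for GDF15, −2.69 to −2.43 for ADAM19 and −0.62 to −0.48 for ENG. In Kyse410 they were 1.35 to 1.39, 1.78 to 1.97, 2.17 to 2.30, −0.71 to −0.64, 0.46 to 0.77 and 0.55 to 0.61, the last reached without Kyse410 shRNA replicate 2. Between scramble controls the call of STC1 was lost with library totals only (−0.031, edgeR adjusted p = 0.47), and the other 5 kept their calls in every alternative. Genes called in opposite directions numbered 902 with DESeq2 and 1056 without a filter on low counts, against 1272. By Spearman's correlation only 5 of the 18 look-alikes stayed among the 3 nearest. In TE10, leaving out a library gave −0.1205 to 0.072 for DDIT3 (0.072 without shRNA replicate 2) and −0.0099 to 0.172 for ATF3 (−0.0099 without scramble replicate 3), none called; the cause was not tested. Replicate numbers did not pair the samples (correlation of same-numbered deviations −0.0123 to 0.0371); with the replicate block 6346 genes were called in TE10 against 6231 and 7993 in Kyse410 against 7921. FAT2 and ADAM19 rest on few reads, which limits their precision.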

Other observations

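Other genes called in opposite directions fell into both patterns, and were named for the size of their smaller change. Lower in TE10 and higher in Kyse410 were LTBP2, which binds elastic fibres (−1.39 ± 0.16 and 1.48 ± 0.16, log2 fold change ± SE), the collagenase gene MMP1 (−1.21 ± 0.083 and 1.43 ± 0.12) and ARNT2, a partner of bHLH-PAS transcription factors (−1.71 ± 0.13 and 1.08 ± 0.11). The transmembrane collagen gene COL13A1 (−1.16 ± 0.17 and 1.06 ± 0.105) and the alkaline phosphatase gene ALPI (−1.25 ± 0.17 and 1.12 ± 0.094) did likewise, although ALPI shares sequence with other alkaline phosphatase genes and is uncertain. Higher in TE10 and lower in Kyse410, as GDF15 was, were PER3 (1.01 ± 0.14 and −1.20 ± 0.067), CRY1 (1.10 ± 0.091 and −0.83 ± 0.075) and BHLHE41 (1.19 ± 0.11 and −0.76 ± 0.074). OSGIN1 (1.03 ± 0.12 and −0.99 ± 0.14) and the small heat shock protein gene HSPB8 (0.77 ± 0.057 and −0.72 ± 0.061) showed the same directions.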
